A study of Rattus norvegicus with 8 samples.

Results

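The 10 genes described here, Gfap, S100b, Aqp4, Aldh1l1, Slc1a2, Slc1a3, Glul, Aldoc, Sox9 and Fgfr3, are commonly used to recognise astrocytes. They were found by their gene symbols among the 45598 non-control probes of a rat expression array, where 16 probes carried those symbols: 4 for Sox9, 2 each for S100b, Slc1a3 and Glul, and 1 for each of the other 6. They are 10 of the 22552 genes that could be tested. The samples were cultures of hippocampal neurons from Wistar rats of postnatal day 0-1, kept in NeurobasalA medium with B27 and Glutamax. On day 3 in vitro they received lentivirus at a multiplicity of infection of 6, and 7 days later, at 10 days in vitro, total RNA was taken. In 4 samples the virus expressed an shRNA against rat Sirt6, and in the 4 samples they were set against it expressed a scrambled shRNA. Sirt6 encodes a nuclear deacetylase of the sirtuin family. Both groups were therefore infected and differed by 1 shRNA sequence each. The labels name no promoter for the shRNA and no share of glia in the cultures, and nothing in them tells whether replicates were grown as separate cultures. Every p-value below therefore refers to the scatter among these 8 samples, which may be technical.

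Astrocytes are the glial cells that clear neurotransmitter, buffer ions and water, supply neurons with metabolites and secrete proteins that act on synapses. Glutamate released by neurons is taken up by the transporters encoded by Slc1a3 and Slc1a2 and turned into glutamine by glutamine synthetase, the product of Glul. Gfap and S100b encode an intermediate filament and a calcium-binding protein, Aqp4 a water channel, Aldoc and Aldh1l1 enzymes of glycolysis and folate metabolism, and Sox9 and Fgfr3 a transcription factor and a growth factor receptor that are present early in the glial lineage.

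Levels are log2 processed signals minus the 75th percentile of the same array, so a level of 0 is the signal at that percentile. Each of the 8 arrays was 1-colour and all lay on 1 slide, with the Sirt6 shRNA samples in 1 row and the scrambled shRNA samples in the other, so that an effect of the slide row cannot be told apart from one of the shRNA. Between 60.5% and 65.3% of probes were well above background on an array, no probe was saturated, and arrays of 1 group correlated at 0.995 to 0.998, against 0.991 to 0.994 between groups. The number of arrays limits the precision. Sirt6 itself had levels of 0.55, 0.58, 0.50 and 0.46 in the Sirt6 shRNA samples and 2.10, 2.04, 2.02 and 2.06 in the scrambled shRNA samples. That is a log2 fold change of -1.53 ± 0.040 (SE; limma, adjusted p = 5.51e-06, n = 4 in each group), or 34.6% of the scrambled level.

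All 16 probes of the 10 genes were well above background on all 8 arrays. At an adjusted p under 0.05, 7 of the 10 genes were lower with the Sirt6 shRNA, 0 were higher and 3 were not called. Among all genes tested, 14.8% were called lower and 15.6% higher, or 30.4% either way. Of the called genes 51.3% were higher, against 35.2% with each array centred on its median and 64.2% with scaling on the E1A spike-in probes. In 8 of the 10 genes every Sirt6 shRNA array lay below every scrambled shRNA array, a pattern shown by 16.1% of all genes; groups did not overlap in either direction for 33.4%. The median log2 fold change of the 10 genes was -0.30, beside 0.021 over all genes tested. In bulk RNA, fewer astrocytes and less RNA per astrocyte cannot be told apart. The sizes were far from uniform, running from -1.42 for S100b to 0.030 for Fgfr3.

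**Figure D1:**
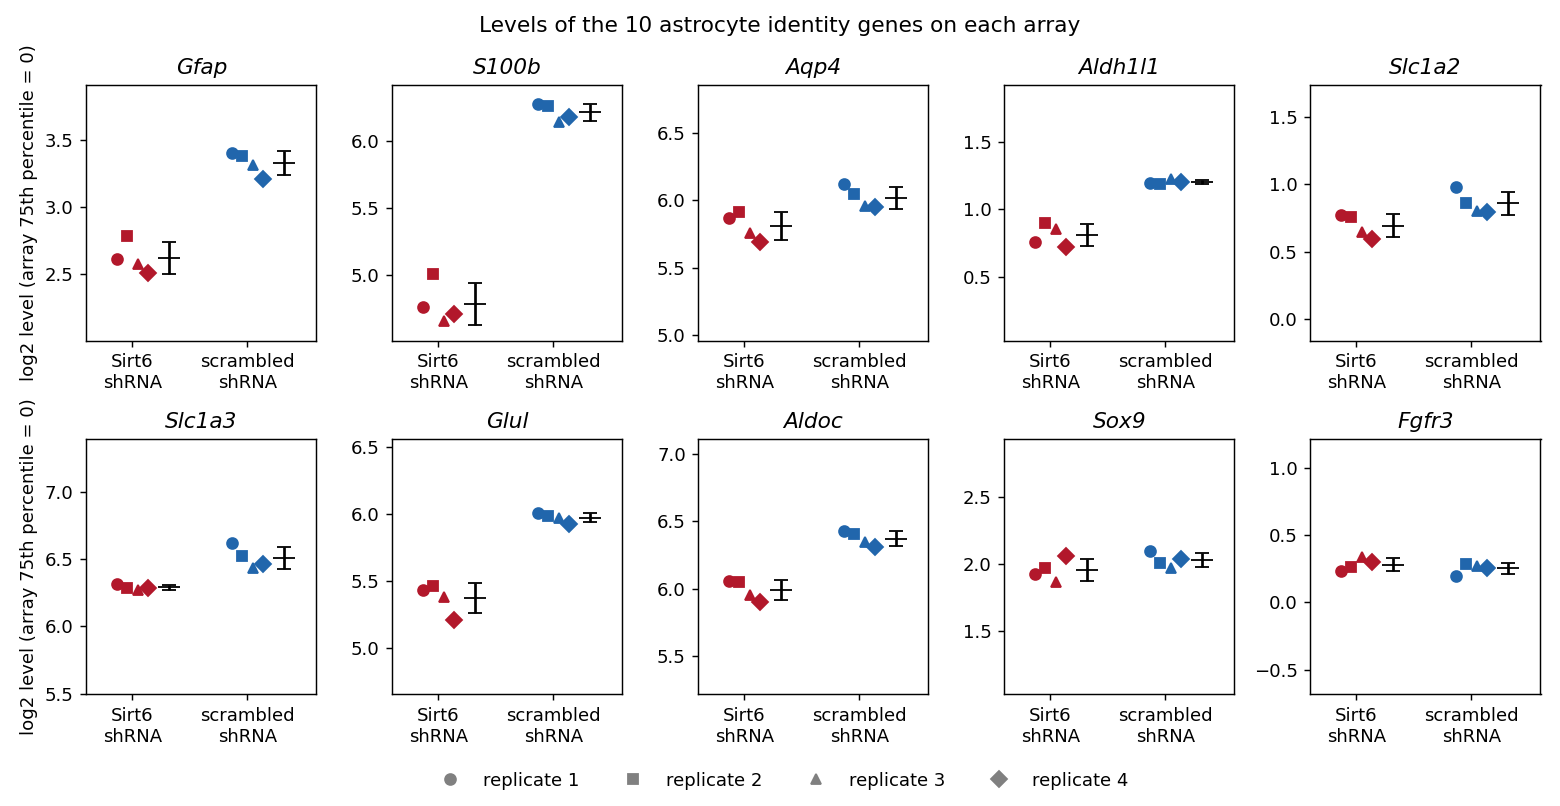
Levels of the 10 genes on each array (vertical axis, log2 level with the array's 75th percentile at 0; every panel spans the same number of log2 units). Points are the 4 arrays of each group by replicate number and the bars give the mean ± SD. The gap between groups is widest for S100b, and the groups overlap for Sox9 and Fgfr3.

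S100b encodes a small calcium-binding protein that astrocytes hold in the cytoplasm and also release. Its level was 4.77, 5.01, 4.66 and 4.72 in the Sirt6 shRNA samples, against 6.27, 6.26, 6.14 and 6.18 in the scrambled shRNA samples. Even the highest Sirt6 shRNA array lay more than 1 log2 unit below the lowest scrambled shRNA array. The difference was -1.42 ± 0.078 in log2 (limma, adjusted p = 3.04e-05), which left 37.3% of the scrambled level and ranked S100b at 72 among all genes by p. A second S100b probe, with levels of 2.92, 3.20, 2.88 and 2.89 in the Sirt6 shRNA samples and 4.66, 4.68, 4.62 and 4.63 in the scrambled shRNA samples, gave -1.67 ± 0.074 (limma, adjusted p = 2.36e-05 over all probes). Of the 10 genes it showed the largest change on either probe.

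Gfap encodes the intermediate filament protein of mature and reactive astrocytes. Its level was 2.61, 2.79, 2.57 and 2.51 with the Sirt6 shRNA and 3.40, 3.38, 3.32 and 3.21 with the scrambled shRNA. The groups were clearly apart, with Gfap at 61.3% of the scrambled level, a log2 fold change of -0.71 ± 0.069 (limma, adjusted p = 0.000287). S100b fell further than Gfap: the log2 ratio of S100b to Gfap lay between 2.08 and 2.22 in the Sirt6 shRNA samples and between 2.82 and 2.97 in the scrambled shRNA samples, a difference of -0.72.

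Of the 3 glutamate genes, Glul and Slc1a3 were called lower and Slc1a2 was not. Glul, the enzyme that makes glutamine from glutamate and ammonia, had levels of 5.44, 5.47, 5.38 and 5.21 with the Sirt6 shRNA, against 6.01, 5.98, 5.97 and 5.93 with the scrambled shRNA. It fell by 0.60 ± 0.059 in log2 (limma, adjusted p = 0.000289), to 66.1% of the scrambled level, and its second probe gave -0.59 ± 0.065. Of the 9 genes set against Gfap, Glul was the only one whose ratio to Gfap overlapped between the groups (difference 0.11).

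Slc1a3, the transporter also called GLAST, had 6.32, 6.28, 6.27 and 6.29 with the Sirt6 shRNA and 6.62, 6.52, 6.43 and 6.46 with the scrambled shRNA. The 4 Sirt6 shRNA arrays were nearly level with each other and all lay below the scrambled shRNA arrays. The log2 fold change was -0.22 ± 0.046 (limma, adjusted p = 0.00972), and -0.32 ± 0.047 on the second probe (adjusted p = 0.00199). Scaling on the E1A spike-in probes ended the call of the first probe (-0.14, adjusted p = 0.276).

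Slc1a2, the transporter also called GLT-1 and the main glutamate transporter of the mature forebrain, had 0.77, 0.75, 0.65 and 0.60 with the Sirt6 shRNA and 0.98, 0.86, 0.80 and 0.79 with the scrambled shRNA. The groups did not overlap, but the gap between them was small beside the spread within each. The log2 fold change of -0.17 ± 0.060 had a 95% interval of -0.30 to -0.028 and was not called after adjustment (limma, adjusted p = 0.0705). It was called under 4 of the 22 alternative settings, with adjusted p between 0.0228 and 0.0376. The single Slc1a2 probe and the second Slc1a3 probe, the dimmer one with the larger change, are shown. The brighter Slc1a3 probe, which stood for its gene in the call above, is not shown. Each sequence is given 5′ to 3′ as on the array, with the design's rn4 position.
Slc1a2, chr3:87988366-87988425, plus strand: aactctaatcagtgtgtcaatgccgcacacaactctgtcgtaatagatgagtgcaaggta
Slc1a3, chr2:58272281-58272340, minus strand: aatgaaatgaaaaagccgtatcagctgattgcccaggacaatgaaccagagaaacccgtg

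Aqp4 encodes the water channel of astrocyte endfeet. Its level was 5.87, 5.92, 5.76 and 5.69 with the Sirt6 shRNA and 6.12, 6.05, 5.96 and 5.95 with the scrambled shRNA. The groups were separated only narrowly, between 5.92 and 5.95. The log2 fold change was -0.21 ± 0.063 (limma, adjusted p = 0.0388), 86.5% of the scrambled level. This call was the least stable of the 7: it was lost under 9 of 22 alternatives, including 7 of the 8 in which 1 array was left out (adjusted p between 0.0502 and 0.0954), and it remained called without the second Sirt6 shRNA replicate.

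The metabolic genes Aldh1l1 and Aldoc fell by similar amounts. Aldh1l1, a folate enzyme whose promoter is often used to label astrocytes, had levels of 0.76, 0.90, 0.86 and 0.72 with the Sirt6 shRNA, against 1.20, 1.19, 1.23 and 1.20 with the scrambled shRNA. Its scrambled shRNA arrays were almost equal, and the difference was -0.39 ± 0.047 in log2 (limma, adjusted p = 0.000709). Aldoc, the brain aldolase of glycolysis, had levels of 6.06, 6.05, 5.95 and 5.90 with the Sirt6 shRNA, against 6.43, 6.40, 6.35 and 6.31 with the scrambled shRNA. The 2 groups were again fully separate, with a log2 fold change of -0.38 ± 0.050 (limma, adjusted p = 0.00115). Aldh1l1 stood at 76.1% and Aldoc at 76.7% of the scrambled level.

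The developmental regulators were not called lower on any probe. Fgfr3, a fibroblast growth factor receptor of glial precursors and astrocytes, had 0.23, 0.26, 0.34 and 0.30 with the Sirt6 shRNA and 0.20, 0.28, 0.27 and 0.25 with the scrambled shRNA. The groups overlapped, and the log2 fold change was 0.030 ± 0.039 with a 95% interval of -0.061 to 0.12 (limma, adjusted p = 0.604). That interval does not reach the size of the Gfap or Glul changes.

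Sox9, a transcription factor needed for glial specification, had 1.92, 1.97, 1.87 and 2.06 with the Sirt6 shRNA and 2.10, 2.01, 1.97 and 2.04 with the scrambled shRNA on its brightest probe. These values overlapped, and the log2 fold change was -0.076 ± 0.051 (95% interval -0.19 to 0.042; limma, adjusted p = 0.297). Its 4 probes did not give 1 answer. A second probe had -0.28, -0.27, -0.21 and -0.32 with the Sirt6 shRNA and -0.42, -0.58, -0.40 and -0.43 with the scrambled shRNA and was called higher, by 0.19 ± 0.051 (adjusted p = 0.0298 over all probes). The other two gave 0.17 ± 0.094 and -0.050 ± 0.050 (adjusted p = 0.226 and 0.486). The probe with 0.17 was dim, with signals of 12.4 to 18.4, below the median signal of every array. The brightest probe had signals of 1247 to 1345. The mean of the 4 probes, in which the dim probe counts as much as the others, was 0.056 and was not called. The direction for Sox9 thus depends on the probe.

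The Sox9 probe called higher and a probe that was not called lay only 37 bases apart on rn4, and this pair is shown for that reason, each 5′ to 3′ on the plus strand.
Called higher, chr10:102388891-102388950: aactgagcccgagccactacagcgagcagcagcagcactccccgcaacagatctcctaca
Not called, chr10:102388988-102389047: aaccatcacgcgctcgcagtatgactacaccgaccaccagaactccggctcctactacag
The brightest Sox9 probe lay a further 611 bases downstream. The remaining probe lay 1659 bases upstream of the first and had levels of -4.40 to -4.17 with the Sirt6 shRNA and -4.70 to -4.29 with the scrambled shRNA. Over all 16 probes of the 10 genes, 10 were called lower, 1 higher and 5 were not called, beside 14.4% of all 28620 probes called lower and 14.1% higher.

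**Figure D2:**
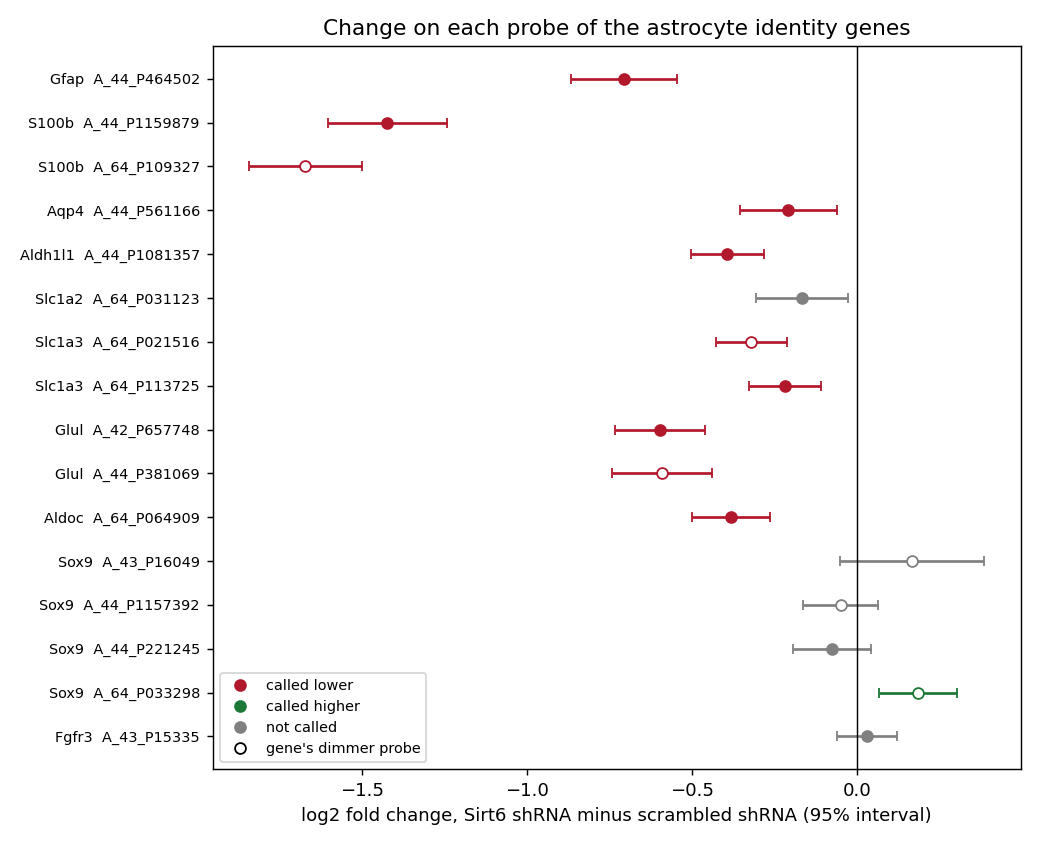
Log2 fold change, Sirt6 shRNA minus scrambled shRNA (horizontal axis, with the 95% interval), of each of the 16 probes. Filled points are the probe that stands for its gene, open points its dimmer probes, and colour gives the call; the 2 S100b probes lie furthest to the left and 1 Sox9 probe is the only one called higher.

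Where a gene had several probes, those of Glul and Slc1a3 did not differ beyond the arrays' spread. The second Glul probe differed from the first by 0.0058 in log2 and the second Slc1a3 probe by -0.10, with overlapping groups in both. The 2 S100b probes differed by -0.25 without overlap, the dimmer one showing the larger fall. The brightest S100b probe has 46 of its 60 bases placed on chromosome 20 by the array design (chr20:12791440-12791485, minus strand, rn4), and the other lies whole at chr20:12791789-12791848. Aldh1l1 and both Glul probes have no design position.

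Set against Gfap within each array, S100b was the only gene whose ratio was lower with the Sirt6 shRNA without overlap. The ratios to Gfap of Fgfr3 (0.74), Sox9 (0.63), Slc1a2 (0.54), Aqp4 (0.50), Slc1a3 (0.49), Aldoc (0.32) and Aldh1l1 (0.31) were all higher in the 4 Sirt6 shRNA samples than in the 4 scrambled shRNA samples, as log2 differences. These ratios describe unequal change between genes and do not show that any gene was unchanged.

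The promoters of 9 of the 10 genes are in the RefSeq table used (assembly GRCr8); Sox9 is the tenth. The 250 bases before each annotated start were searched on both strands for 3 motifs, as a description of sequence only. The STAT motif TTCNNNGAA was in 0 of the 9 genes and in 8.19% of 27457 genes. The short NFI motif TTGGCA was in 3 of the 9 (Glul, S100b and Slc1a3) and in 12.7% of genes, and the SOX motif ACAAAG in 2 of the 9 (Aqp4 and Slc1a3) and in 17.2%. The windows of Gfap, which holds none of the 3, and of Slc1a3, which holds the NFI and SOX motifs without overlap, are shown to compare a gene with and without a match. Both lie on the minus strand and are read 5′ to 3′ up to the base before the start. Capitals mark the matches, the SOX motif from 112 and the NFI motif, there on the other strand, from 85 bases before the start.
Gfap, chr10:88361662-88361911: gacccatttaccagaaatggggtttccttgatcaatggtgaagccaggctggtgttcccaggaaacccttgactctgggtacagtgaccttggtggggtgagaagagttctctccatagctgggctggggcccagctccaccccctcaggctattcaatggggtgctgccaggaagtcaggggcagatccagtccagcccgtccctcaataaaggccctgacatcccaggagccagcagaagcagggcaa
Slc1a3, chr2:59557809-59558058: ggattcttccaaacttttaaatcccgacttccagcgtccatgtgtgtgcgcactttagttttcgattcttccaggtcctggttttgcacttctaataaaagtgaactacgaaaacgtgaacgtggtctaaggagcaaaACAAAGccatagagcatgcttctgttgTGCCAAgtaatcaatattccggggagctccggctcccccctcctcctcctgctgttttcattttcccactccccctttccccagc
Both genes were called lower.

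Most of the 10 genes, but neither Sox9 nor Fgfr3, also varied together among arrays of 1 group. As a mean over the 10 genes, each array's deviation from the mean of all arrays was -0.19, -0.13, -0.24 and -0.27 with the Sirt6 shRNA and 0.26, 0.23, 0.18 and 0.16 with the scrambled shRNA. The second Sirt6 shRNA replicate stood highest in its group, with S100b 0.22 and Gfap 0.16 above their group means. After each gene's group means were subtracted, 32 of the 45 pairs of genes had a Pearson r above 0 over the 8 arrays, with a median of 0.42 and a range of -0.80 to 0.96. The closest pairs were Aqp4 with Aldoc (0.96), Aqp4 with Slc1a2 (0.96) and Slc1a2 with Aldoc (0.95). These points share the arrays and each array's scaling constant, so they are a description. Arrays with the same replicate number also lay in the same slide column. In both groups the mean over the 10 genes was higher in replicates 1 and 2 than in replicates 3 and 4. An effect of the column cannot be told apart from one of the replicate.

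Against the mean of the other nine, Aqp4 (r = 0.97), Gfap (0.92), Aldoc (0.88), Slc1a2 (0.86), S100b (0.80) and Glul (0.75) followed the group most closely. Slc1a3 (0.52) and Aldh1l1 (0.38) followed it less closely. Sox9 (-0.046) and Fgfr3 (-0.66) did not follow it. The 5 genes outside the 10 whose within-group pattern was most like the mean of the 10 were Cnot6, Gsta1, LOC103693001, ENSRNOT00000046658 and Cfap77, with r between 0.98 and 0.99 over 8 arrays. Of these, Gsta1, a glutathione transferase, and LOC103693001 were called lower (-0.56 ± 0.062 and -0.72 ± 0.077; limma, adjusted p = 0.000506 and 0.000416), and the other three were not called.

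**Figure D3:**
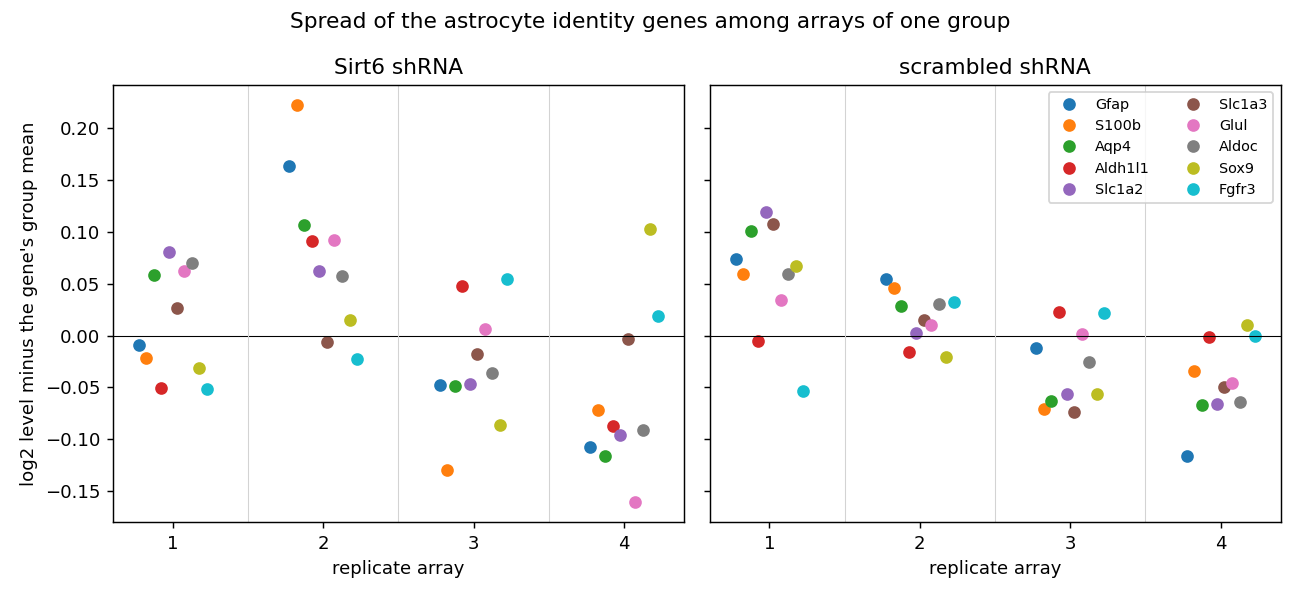
Log2 level minus the gene's own group mean (vertical axis) for the 10 genes on each replicate array (horizontal axis), with Sirt6 shRNA on the left and scrambled shRNA on the right. In the second Sirt6 shRNA replicate 7 genes lie above their mean by over 0.05, with S100b and Gfap highest.

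Other genes of astrocyte function were counted from 9 further lists, to be read beside the 14.8% of all genes called lower and 15.6% called higher. Genes given with an SE were picked by a rule, as called genes of largest absolute log2 fold change, so their sizes are selected too. A gene given by its log2 fold change alone, with no SE, was named after its values were seen. Genes of glutamate and energy metabolism shared the fall in part: 10 of 23 measured genes were lower and 3 higher, with a median of -0.17. Cbs, which makes cystathionine from homocysteine, fell by 1.32 ± 0.067 in log2 (limma, adjusted p = 2.60e-05), to 40.1% of the scrambled level. Mmd2 fell by 0.77 ± 0.043, Acsbg1, an acyl-CoA synthetase, by 0.56 ± 0.046, and the lactate transporter Slc16a1 by 0.48 ± 0.045. The neuronal glutamate transporter Slc1a1 (0.19) and the bisphosphatase Fbp2 (0.21) were among those that went the other way. Etnppl was below the signal filter. With E1A scaling, 5 of the 23 were lower and 1 higher, beside 5.17% and 9.29% of all genes under that scaling.

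Secreted and surface proteins were the list with the most calls. Of 23 measured genes 18 were lower and 2 higher, with a median of -0.35. Dio2, the deiodinase that activates thyroid hormone, fell by 1.07 ± 0.12 in log2, and Gpc4, a glypican that astrocytes release to act on synapses, by 1.06 ± 0.048. Thbs2, a thrombospondin, fell by 0.67 ± 0.073 and the proteoglycan Ncan by 0.59 ± 0.043 (all limma, adjusted p between 2.31e-05 and 0.000464). Gpc4 stood at 47.9% and Dio2 at 47.6% of the scrambled level, with no overlap between groups. With normexp, a model-based background correction, Dio2 had -0.51 and Thbs2 -0.34, both still called. Timp3 (0.34), an inhibitor of metalloproteinases, and Fjx1 (0.19) were higher. With E1A scaling, 9 of the 23 were lower and 1 higher, beside 5.17% and 9.29% of all genes.

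Channels and endfoot genes were mixed: 6 of 18 were lower and 3 higher, with a median of -0.052 that became 0.023 under E1A scaling. Aqp9, an aquaporin that also passes glycerol, rose by 0.89 ± 0.070 (limma, adjusted p = 0.000107), whereas Aqp4 fell. The potassium channel Kcnk1 rose by 0.40 ± 0.056 and the glutamate receptor Grm3 by 0.36 ± 0.061, while the cation channel Trpv4 fell by 0.41 ± 0.062; with normexp Grm3 had 0.20 and Trpv4 -0.19. The second probes of Kcnk1 (0.41) and Grm3 (0.33) were not called. Kcnj10, the main inward rectifier of astrocytes, was well above background on at most 2 arrays and was not tested.

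Regulators of gliogenesis split evenly, with 7 of 26 lower and 7 higher and a median of 0.0079 that changed sign with median centring (-0.037). Nfix, a nuclear factor I gene, fell by 0.94 ± 0.041 (limma, adjusted p = 2.05e-05), and its 2 other probes gave -0.87 and -0.61. The inhibitor of DNA binding Id4 fell by 0.57 ± 0.038 and the zinc finger gene Zbtb20 by 0.47 ± 0.13; the Zbtb20 call was lost under 7 alternatives. Sox8 rose by 0.45 ± 0.11, or 0.19 with normexp. Nfia (0.18, adjusted p = 0.0970) was not called and Nfib (0.24) was called higher, so the nuclear factor I genes did not get 1 call.

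Radial and immature glial genes had 2 of 17 lower and 4 higher (11.8% and 23.5%, beside 14.8% and 15.6% of all genes). Their median of 0.0045 also changed sign with median centring (-0.041). The matrix protein tenascin C, Tnc, rose by 0.95 ± 0.094 and the intermediate filament nestin, Nes, by 0.63 ± 0.049 (limma, adjusted p = 0.000296 and 0.000105). Top2a, a topoisomerase of dividing cells, rose by 0.61 ± 0.19 but lost its call under 8 alternatives and had 0.29 with normexp. The fourth gene called higher was Ptprz1 (0.18), a receptor phosphatase. The receptor Egfr fell by 0.45 ± 0.056, and the fatty acid binding protein gene Fabp7 (-0.18) was the other called lower. Vim, which encodes vimentin, had a log2 fold change of -0.081 (adjusted p = 0.225).

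The gene families of the 10 genes did not move as 1 block. Among 9 measured genes of the S100 list, which holds S100pbp besides S100 genes proper, 0 were lower and 3 higher, with a median of 0.11. S100a11 rose to 214.4% of the scrambled level, and in log2 S100a6 rose by 0.85 ± 0.17 and S100a10 by 0.41 ± 0.055 (limma, adjusted p between 2.90e-05 and 0.00710), whereas S100b fell. Among fibroblast growth factors and their receptors 4 of 11 were lower and 2 higher (median 0.017, or -0.028 with median centring). Fgf18 rose by 0.54 ± 0.062, while Fgf2 fell by 0.53 ± 0.080, Fgfrl1 by 0.25 ± 0.042 and Fgf9 by 0.23 ± 0.056. The receptors Fgfr2 (-0.14) and Fgfr1 (0.22) were called lower and higher. Fgfrl1 and Fgf9 lost their calls with E1A scaling.

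Other Sox genes had 1 of 8 lower and 2 higher, with a median of 0.067. Sox21 rose by 0.32 ± 0.088 and Sox6 fell by 0.30 ± 0.066, while the second Sox6 probe gave -0.068 and was not called. Sox21 lost its call under 7 alternatives, with 0.20 under normexp, and Sox6 lost it under 2, with -0.18 as the mean of its probes. Among the other aldolases and aldehyde dehydrogenases 6 of 12 were lower and 3 higher, with a median of -0.16, and 0 were lower and 2 higher with E1A scaling. Aldh1a1, an enzyme of retinoic acid synthesis, rose by 1.06 ± 0.079 (limma, adjusted p = 9.32e-05) and Aldh1a2 by 0.47 ± 0.071, or 0.18 with normexp; Aldh3a2 (0.24) was the third called higher. Aldh1a3 had -0.66 ± 0.19 with overlapping groups, lost its call under 7 alternatives and had -0.15 with normexp. The lists share some genes, such as Sox8 and Sox21.

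**Figure D4:**
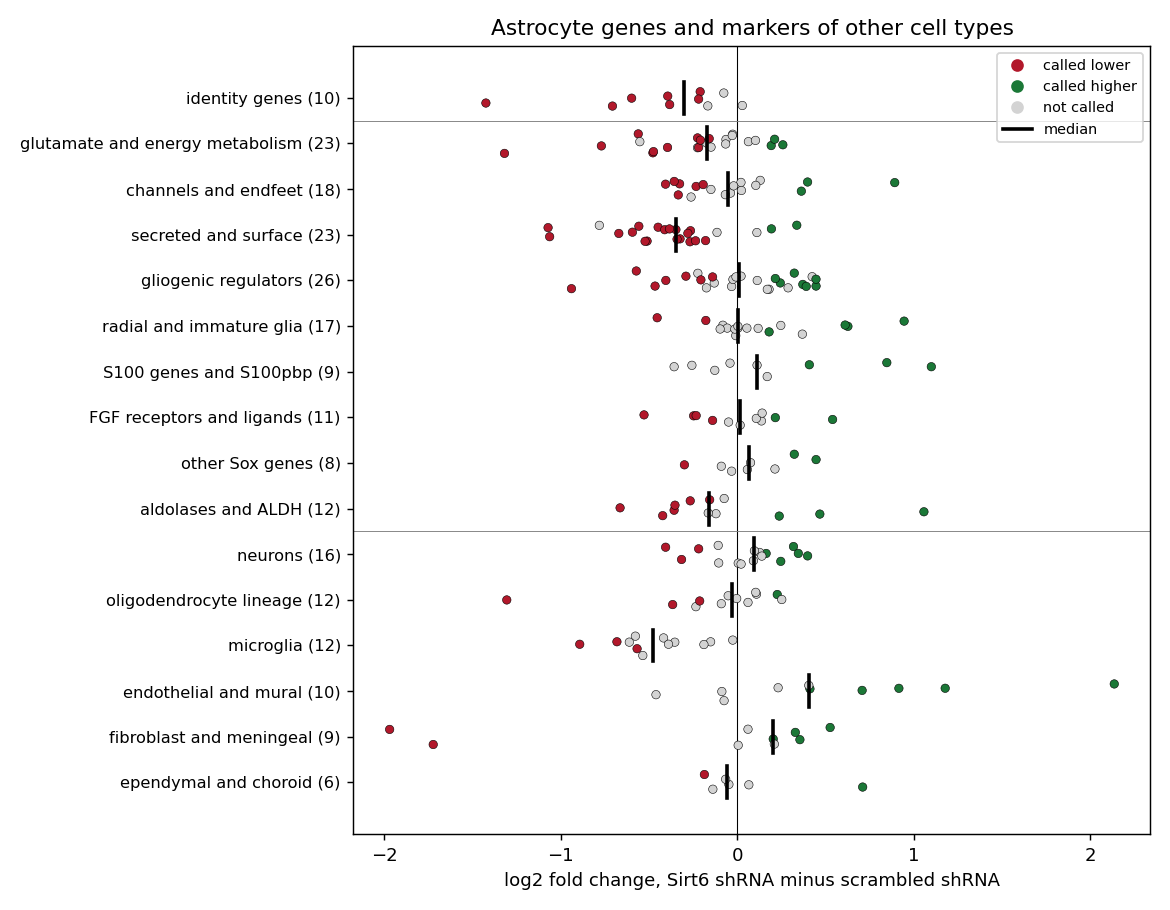
Log2 fold change, Sirt6 shRNA minus scrambled shRNA (horizontal axis), of each measured gene of the 10 identity genes (top), 9 other astrocyte lists and 6 lists of other cell types; numbers in brackets are genes measured, black bars are medians and colour is the call. The identity genes, the secreted and surface genes and the microglial genes have medians of -0.30, -0.35 and -0.48.

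Markers of other cell types were measured in the same arrays, and their part in the changes above was not tested. Their counts, too, are to be read beside the 14.8% of all genes called lower and 15.6% called higher. Summed over the 10 genes on the linear scale, in units of each array's 75th percentile, the astrocyte identity genes came to 267.1 to 296.4 with the Sirt6 shRNA and 380.8 to 415.6 with the scrambled shRNA. All 16 neuronal genes were measured: 3 were lower and 5 higher (median 0.095), and their sum was 208.0 to 233.6 with the Sirt6 shRNA and 217.9 to 221.1 with the scrambled shRNA. Slc17a6, the vesicular glutamate transporter 2, rose by 0.40 ± 0.049 and Gad1, which makes GABA, fell by 0.41 ± 0.047. Nefm (0.35), Tubb3 (0.32), Rbfox3 (0.25) and Map2 (0.16) were the others called higher, and Gad2 (-0.31) and Stmn2 (-0.22) the others called lower. A linear sum weights each gene by the brightness of its probe; of the 16 neuronal genes 6 overlapped between groups.

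Of 12 oligodendrocyte lineage genes 3 were lower and 1 higher (median -0.027, or 0.048 with E1A scaling), with sums of 43.4 to 45.4 with the Sirt6 shRNA against 48.6 to 53.9 with the scrambled shRNA. Mbp, myelin basic protein, fell by 1.31 ± 0.11 on its brightest probe and had 0.028 on another, with a mean over its probes of -0.64. Olig1 fell by 0.37 ± 0.044, a call lost with E1A scaling; Cnp (-0.21) was the third called lower and Cspg4 (0.23) was called higher. Of 12 microglial genes 3 were lower and 0 higher (median -0.48), or 6 and 0 with normexp (median -0.34), with sums of 21.9 to 43.7 with the Sirt6 shRNA and 30.9 to 43.4 with the scrambled shRNA, which overlapped. Tmem119 fell by 0.89 ± 0.18, and P2ry12 had -0.68 ± 0.20 with overlapping groups and lost its call under 7 alternatives; with normexp they had -0.57 and -0.39. Csf1r (-0.57) was the third called lower.

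Of 15 listed endothelial and mural genes 10 were measured, 5 of them higher, 0 lower and 5 not called (median 0.41). With normexp background correction the median was 0.11, with 5 higher and 1 lower. Their linear values had sums of 15.2 to 18.4 with the Sirt6 shRNA against 7.57 to 8.61 with the scrambled shRNA. Tagln, which encodes transgelin, rose by 2.14 ± 0.11 in log2, and Abcc9 by 1.18 ± 0.27, which was 0.13 with normexp; its probe was well above background on 6 of the 8 arrays. Myh11 (0.92), Acta2 (0.71) and Kdr (0.41) were the others called higher. Of the 5 not called, Pecam1 (-0.46), Vwf (-0.087) and Pdgfrb (-0.074) were below 0, and Tek (0.41) and Cdh5 (0.23) above it. The sums differed mostly through Tagln, with a mean log2 level of 3.41 with the Sirt6 shRNA and 1.27 with the scrambled shRNA. Vwf, the next brightest with the Sirt6 shRNA, had 1.86 and 1.95. The endothelial genes Cldn5 and Flt1 and the pericyte gene Rgs5 were below the signal filter. Of 9 fibroblast and meningeal genes 2 were lower and 4 higher (median 0.20), with sums of 28.7 to 30.7 with the Sirt6 shRNA against 30.9 to 35.3 with the scrambled shRNA. Fmod fell by 1.97 ± 0.14 and Mgp by 1.72 ± 0.071, while Slc6a13 (0.53) and the collagen genes Col1a2 (0.36), Col3a1 (0.33) and Col1a1 (0.20) were higher. Of 6 ependymal and choroid genes 1 was lower and 1 higher (median -0.056, or 0.019 with E1A scaling), with sums of 17.9 to 60.2 with the Sirt6 shRNA and 21.0 to 77.7 with the scrambled shRNA. These sums were mostly Ttr, which was not called. Its log2 level ran from 3.79 to 5.80 with the Sirt6 shRNA and from 4.04 to 6.19 with the scrambled shRNA. No other measured gene of this list had a level above 1.56. Enkur rose by 0.71 ± 0.049, or 0.45 with normexp, and Foxj1 had -0.19 ± 0.054, a call lost under 10 alternatives, with -0.053 as the mean of its probes.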

How the data were processed

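Total RNA of 8 samples was measured on 1-colour arrays, 4 for each group in the labels. The authors made the spot intensity values with Agilent Feature Extraction 11.5.1.1 (as the submitters' processing notes and file headers state), which subtracted background and detrended each array without normalizing between arrays. A deposited table of log2 values equalled these signals minus 1 constant per array (SD of the difference at most 0.0029), with column medians of -3.70 to -3.59; it is not centred on genes and served as an alternative.

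Control and outlier spots were left out, log2 signals of repeated spots averaged, and the 75th percentile taken off per array. Probes well above background on at least 4 of 8 arrays were kept (28620). Names came where possible from a RefSeq table of assembly GRCr8, used for names and promoters only (21109 by systematic name, 2736 by another accession, 5129 by symbol, 352 by an older symbol; 16272 of the 45598 kept the file's name). The brightest probe stood for its gene. The comparison used lmFit and eBayes of limma 3.58.1 (R 4.3.3), two-sided, with Benjamini-Hochberg adjustment over 22552 genes, or over 28620 for single probes. Calls are adjusted p-values under 0.05. The script was tested on simulated data.

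The genes and lists were chosen with earlier results of these data known. From each further astrocyte list up to 4 called genes of largest absolute log2 fold change were named, and from each list of other cell types up to 2; further genes completing a small count were named after their values were seen. A few genes that enter the list counts are not reported here by name. Likeness was the within-group Pearson r over 8 arrays. Alternatives covered background correction, scaling, the filter on dim probes, probe choice, gene names, the variance model, array weights, a replicate block and leaving out each array, all read for the further list genes after seeing the data. The number of arrays limits the precision.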

Additional observations from a re-analysis of the deposited data

Results flagged for a closer look

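A screen for single distant arrays covered 124 groups of 4 arrays. It took both groups for every probe of the identity genes, and for the brightest probe of Sirt6 and of each gene picked by the naming rule. In 6 of the groups 1 array lay far from the others (Dixon's test at the 95% level, which chance passes in about 1 of 20 groups). Of these, 2 were among the 32 groups of the identity genes' probes. On the second S100b probe, the second Sirt6 shRNA replicate lay at 3.20 and the other three at 2.88 to 2.92, still below every scrambled shRNA array. The same array was the high one for the only 2 microglial genes screened: Tmem119 at -1.49 with the others at -2.22 to -2.11, and P2ry12 at -1.81 with the others at -2.73 to -2.60. It was also the highest of its group for every other microglial gene listed except Cx3cr1. Aif1, for example, had 3.70 there and 2.62 to 2.93 on the other Sirt6 shRNA arrays. The second scrambled shRNA replicate was likewise the highest of its own group for every microglial gene listed except Cx3cr1. Aif1 had 3.91 on it and 3.37 to 3.67 on the other scrambled shRNA arrays. The pattern was thus shared by the arrays of replicate 2 in both groups, which also lay in the same slide column.

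The Sox9 probe called higher had its second scrambled shRNA replicate at -0.58 and the others at -0.43 to -0.40. That array was also the low one for Sox6, at 0.31 with the others at 0.50 to 0.53. For Sox21 the first scrambled shRNA replicate lay at -0.90 and the others at -1.29 to -1.23.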

How the results depend on the processing

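Over 22 alternatives, 8 of which left out 1 array, the log2 fold change of Sirt6 ran from -1.57 to -1.41 and stayed called, the number of identity genes called lower ran from 5 to 8 (6 to 7 with 1 array left out) and the number called higher was 0 throughout. Their median ran from -0.35 to -0.23, and from -0.32 to -0.27 with 1 array left out. It moved beyond the SD between arrays only with scaling on the 7 E1A spike-in probes, to -0.23, with 5 genes called lower (Aqp4 and Slc1a3 lost). Some alternatives could not move this median: the trend and robust options and the replicate block leave the log2 fold changes as they are. E1A scaling called 1167 genes lower (5.17% of all genes) and 2094 higher (9.29%), against 3344 (14.8%) and 3523 (15.6%). The share of called genes that were higher was thus 64.2%, against 51.3%, and 35.2% with median centring (2000 higher, or 8.87% of all genes). E1A scaling and median centring each take 1 constant off an array, so they move the log2 fold changes of all genes together. The median over all genes moved by 0.075 with E1A scaling and by -0.045 with median centring. Why the constants differed between the groups was not tested. Calls lower with E1A scaling numbered 2 of 18 channel and endfoot genes, 3 of 26 regulators, 1 of 17 radial glial genes, 1 of 11 fibroblast growth factor genes, 0 of 8 Sox genes, 1 of 16 neuronal and 1 of 12 oligodendrocyte genes, and with median centring calls higher numbered 4 of 26 regulators, 1 of 23 metabolic and 1 of 23 secreted and surface genes. With normexp, 6 of 12 microglial genes were lower and the endothelial and mural median was 0.11. Abcc9 had 0.13 and Dio2 -0.51 under it. With median centring calls higher numbered 3 of 16 neuronal, 1 of 11 fibroblast growth factor and 1 of 8 Sox genes. Over all genes, replicate numbers paired the samples weakly if at all: deviations of same-numbered arrays correlated at 0.034 to 0.16. Of the 4 Sirt6 shRNA arrays 2 correlated best with their own number. Replicate number was also the slide column in both rows, so replicate and column cannot be told apart. With a replicate block 8 identity genes were lower, since the log2 fold change of Slc1a2 was then called (adjusted p = 0.0313), and 3218 of all genes were lower and 3205 higher; Top2a lost its call (adjusted p = 0.0511). Slc1a2 was also called with normexp (adjusted p = 0.0228), median centring (0.0376) and the trend and robust options (0.0303). No called gene among the 55 read changed sign; the uncalled Sox9 ran from -0.12 to 0.056 and Fgfr3 from -0.016 to 0.10.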
